A study of Homo sapiens with 27 samples.

Results

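The 10 genes described here encode the AP-1 transcription factors and related immediate early factors: FOS, FOSB, FOSL1 and FOSL2 of the FOS family, JUN, JUNB and JUND of the JUN family, and ATF3, EGR1 and MAFF. They are 10 of the 23230 symbols in the deposited count table, named by symbol with earlier results of these data known, and all 10 were listed and passed the filter on low counts in the fit of each line and of all 27 libraries. The study overexpressed MAML3, a Mastermind-like transcriptional coactivator known from Notch signalling, in SK-N-SH, a neuroblastoma line, and in 2 pancreatic neuroendocrine tumour lines, BON-1 and QGP-1. In each line, cells transiently received full-length MAML3 cDNA (FL), the cDNA without exon 1 (dEx1) or the empty plasmid (vector), and RNA was taken on day 3 and sequenced from TruSeq mRNA libraries. Both inserts carried a V5 tag at the C-terminal end and were cloned in pCMV6-AC, a plasmid with a viral promoter, and all 3 kinds of cells, vector cells included, went through Lipofectamine 3000 transfection. The lines grew in different media, EMEM for SK-N-SH, DMEM/F12 for BON-1 and RPMI for QGP-1, so line and medium cannot be told apart. Each of the 9 groups had 3 replicates that the labels call biological, plated in triplicate, and 27 libraries were made in all. All lines were grown with fetal bovine serum, and the sources used here name no stimulus given before harvest.

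AP-1 is a dimer of basic leucine zipper (bZIP) proteins. JUN proteins pair with each other or with FOS proteins, whereas FOS proteins need a JUN partner, and the dimers bind the sequence TGACTCA or the related cyclic AMP response element (CRE). FOS, FOSB, JUN, JUNB, ATF3 and EGR1 are classic immediate early genes, transcribed within minutes of a growth factor, cytokine or stress signal through MAP kinases, serum response factor and CREB, and FOSL1 follows as a slower target. AP-1 is known for driving metalloproteases, chemokines and genes of migration, and FOSL1 and FOSL2 are known in neuroblastoma as factors of the mesenchymal cell state.

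The total estimated count per library was 8.17e+07 to 1.06e+08 in SK-N-SH, 7.30e+07 to 1.10e+08 in BON-1 and 7.94e+07 to 1.20e+08 in QGP-1, in deposited units whose worth in sequenced fragments is not given in the sources used here. MAML3 was far above vector in every library that received a construct, at 4787 to 15250.2 CPM (the estimated count relative to the TMM-scaled library total) in SK-N-SH, 2683 to 5148 CPM in BON-1 and 2421 to 9001 CPM in QGP-1, against 16.3 to 101 CPM in the vector libraries of all 3 lines. Of 7 neuroblastoma markers fixed for the line check, summed levels were 95.3 to 242 CPM in SK-N-SH, 0.310 to 2.11 CPM in BON-1 and 26.1 to 32.7 CPM in QGP-1, with TH at 0 in SK-N-SH FL and dEx1 and HAND2 at 0 in all BON-1 libraries. The 7 pancreatic neuroendocrine markers summed to 9.66 to 35.3 CPM in SK-N-SH, 13071 to 35835 CPM in BON-1 and 2122 to 3970 CPM in QGP-1, with INSM1 at 0 in all SK-N-SH libraries. Markers of macrophages and of endothelial cells stayed at or below 10.7 CPM when summed. On principal components, SK-N-SH vector replicate 3 lay on the side of the dEx1 libraries, replicate 3 of each SK-N-SH group stood apart from replicates 1 and 2, and BON-1 vector replicate 1 stood alone. QGP-1 libraries formed 2 clusters. Vector replicates 2 and 3 lay in 1 of them with replicate 3 of FL and of dEx1, and the remaining libraries lay in the other. The clusters were thus uneven over vector and constructs. The factors' calls in SK-N-SH, the counts of the other gene lists and the vector levels of FOSL1, FOSL2, JUN, ATF3, JUND and FOSB in BON-1 are given below with and without the libraries that stood apart. In bulk RNA, fewer cells expressing a gene and less RNA per cell cannot be told apart.

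In SK-N-SH, dEx1 cells had lower levels of 6 of the 10 factors than vector cells and of 7 of the 10 than FL cells, while FL cells differed from vector cells in none by edgeR's quasi-likelihood test at an adjusted p of 0.05. JUNB, JUN, FOSL1, ATF3, EGR1 and MAFF passed downward with dEx1 against both other groups, and FOSL2 passed against FL. FOS, FOSB and JUND passed in none of the SK-N-SH comparisons. Of all genes tested, 3.64% were called lower with dEx1 against vector and 11.5% with dEx1 against FL. With FL against vector 1.74% were called either way. In BON-1 and QGP-1 no factor passed in any comparison, where at most 0.0275% of all genes tested were called. For FL against vector, simulated 2-fold changes were recovered in 19% of changed genes in BON-1 and 33% in QGP-1. The lack of a call there thus does not show a lack of change.

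**Figure D1:**
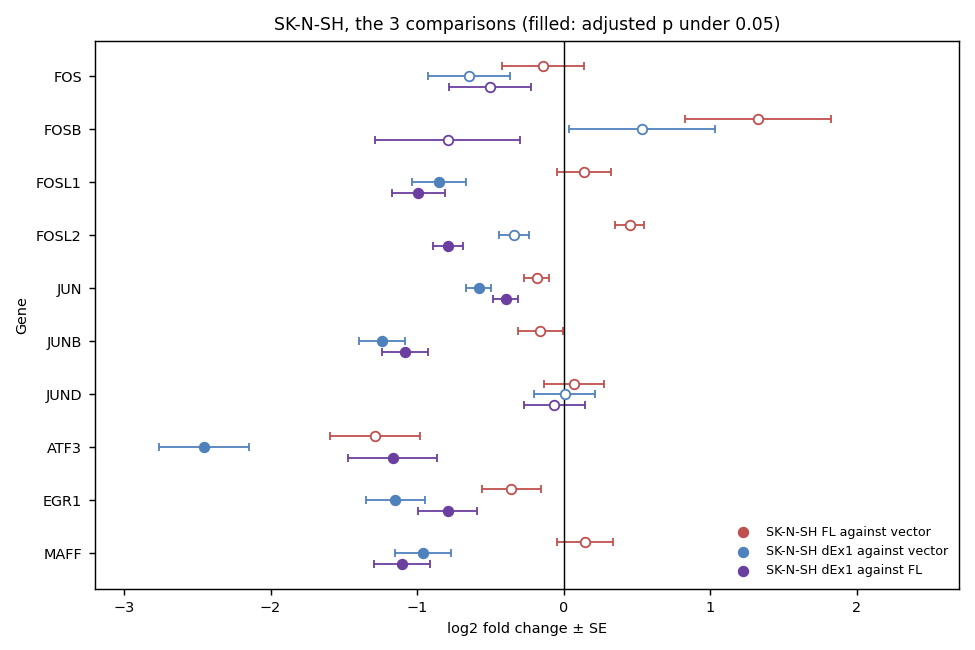
Fitted log2 fold changes of the 10 factors in SK-N-SH for FL against vector, dEx1 against vector and dEx1 against FL, with bars of 1 SE over 3 libraries a group; filled points have an adjusted p under 0.05. The dEx1 comparisons hold 6 and 7 filled points, all left of 0, and FL against vector holds none, with ATF3 at -1.29 and FOSB at 1.33 as its extremes.

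Against vector, the 6 calls with dEx1 in SK-N-SH were all downward, where 3.64% of the 14674 genes tested were called lower and 4.47% either way; 8 of the 10 had an unadjusted p under 0.05 and DESeq2 called 7. The median log2 fold change over the 10 factors was -0.75, beside 0.01 over all genes tested. ATF3 (chr1:212738676-212794119, plus strand, hg19, 4 exons), a stress-induced bZIP factor that pairs with JUN proteins, had 20.0, 21.2 and 10.9 CPM in dEx1 replicates 1 to 3, against 122, 106 and 57.3 CPM in the vector replicates. Every dEx1 library was far below every vector library, and vector replicate 3 was the lowest of its group. The log2 fold change of ATF3 was -2.45 (SE 0.31, adjusted p = 0.00884), which is 5.48-fold lower in dEx1 cells. It passed under all 19 alternatives run, at -2.73 to -2.22, and was -2.73 without vector replicate 3.

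JUNB (chr19:12902300-12904129, plus strand, hg19, 1 exon), the JUN family member with a weaker activation domain than JUN, had 95.9, 106 and 85.5 CPM in SK-N-SH dEx1 cells, against 250.0, 242 and 188 CPM in vector cells. The groups did not overlap, and the highest dEx1 library was far below the lowest vector library. Its log2 fold change was -1.24, or 2.36-fold lower in dEx1 cells (SE 0.16, adjusted p = 0.00883), and the call was lost under 1 of 19 alternatives, without dEx1 replicate 1 (adjusted p = 0.0505). JUN, the strongest activator of the family, had 193, 191 and 210.1 CPM with dEx1, against 306, 281 and 302 CPM with vector. Both groups were tight and well separated. JUN fell by 0.58 (SE 0.09, adjusted p = 0.0133). That call was lost with all 27 libraries fitted together, without dEx1 replicate 1 and without vector replicate 1 (adjusted p up to 0.285), while the log2 fold change stayed between -0.63 and -0.56.

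FOSL1, which encodes FRA1 and lacks the C-terminal activation domain of FOS, had 251, 251 and 243 CPM in SK-N-SH dEx1 cells, against 511, 452 and 383 CPM in vector cells. The 3 dEx1 libraries were nearly alike, whereas the vector libraries spread, again with replicate 3 lowest. FOSL1 fell by 0.85 (SE 0.18, adjusted p = 0.0388). This call was lost with all 27 libraries fitted together and without any 1 of FL replicate 1, the 3 dEx1 libraries and vector replicates 1 and 2 (adjusted p up to 0.242), and the log2 fold change stayed between -0.96 and -0.75.

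EGR1, a zinc finger factor and no AP-1 protein, had 32.6, 52.2 and 34.6 CPM with dEx1 in SK-N-SH, against 87.6, 73.6 and 104 CPM with vector. No dEx1 library reached the lowest vector library. EGR1 fell by 1.15 (SE 0.20, adjusted p = 0.0201), a call lost with only the 6 libraries compared and without dEx1 replicates 1 or 3 or vector replicate 1 (adjusted p up to 0.0793). MAFF, a small MAF protein without an activation domain of its own, had 37.1, 43.6 and 28.1 CPM with dEx1, against 77.1, 79.8 and 55.1 CPM with vector. Here too the groups were separate, with replicate 3 lowest in both. MAFF fell by 0.96 (SE 0.19, adjusted p = 0.0292), a call lost with only the 6 libraries compared, with all 27 fitted together and without FL replicate 1, dEx1 replicates 1 or 3 or vector replicates 1 or 2 (adjusted p up to 0.151).

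The 4 factors that did not pass at dEx1 against vector in SK-N-SH were FOS, FOSB, FOSL2 and JUND. FOSL2, which encodes FRA2, had 236, 251 and 228 CPM with dEx1, against 286, 281 and 337 CPM with vector, groups that did not overlap (log2 fold change -0.34, SE 0.10, adjusted p = 0.0963). FOS, the founding member of its family, was low in this line, with 6.46, 9.61 and 5.05 CPM with dEx1, against 12.6, 12.3 and 8.21 CPM with vector (-0.65, adjusted p = 0.215). FOSB was lower still, at 2.37, 3.86 and 1.76 CPM with dEx1 and 3.18, 1.08 and 1.26 CPM with vector, and overlapped (0.54, SE 0.50, adjusted p = 0.575). JUND, the least inducible JUN gene, had 99.8, 109 and 105 CPM with dEx1 and 89.0, 97.2 and 125 CPM with vector (0.01, SE 0.21, adjusted p = 0.991). Its vector libraries lay on either side of all 3 dEx1 libraries. With vector replicate 3 left out, or replicate 3 of every group, the 6 calls stood. Leaving out 1 library at a time gave 1 to 6 calls, with ATF3 alone passing without dEx1 replicate 1. With all 27 libraries fitted together JUN, FOSL1 and MAFF lost their calls. With a term for replicate 3, chosen after seeing the data, FOS and FOSL2 passed as well, which made 8.

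The 250 bases before and 50 after the transcription start (RefSeq, GRCh38.p14, a later build than the hg19 of the counts) were available for 9 of the 10 genes, FOSL1 excepted, as 11 promoters, since ATF3 and MAFF had 2 starts. Those of JUNB, EGR1 and MAFF are shown as examples that hold the motifs below, from the genes that passed downward with dEx1. JUN and ATF3 passed downward as well and are not shown. That of FOSL2 is shown because it holds the AP-1 site itself. Capitals mark matches on either strand of TGACTCA (the AP-1 site), TGACGTCA (the full CRE), TGACG or its reverse complement CGTCA (the CRE core, which the full CRE contains on each strand), TATAAA and the CArG box, the sequence bound by serum response factor.
JUNB (chr19:12791236-12791535, plus strand): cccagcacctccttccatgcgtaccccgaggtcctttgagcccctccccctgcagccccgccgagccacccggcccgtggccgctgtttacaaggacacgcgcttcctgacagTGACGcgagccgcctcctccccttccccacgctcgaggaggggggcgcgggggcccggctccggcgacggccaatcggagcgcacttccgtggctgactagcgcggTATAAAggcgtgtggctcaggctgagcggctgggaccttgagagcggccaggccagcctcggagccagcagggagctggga
EGR1 (chr5:138465229-138465528, plus strand): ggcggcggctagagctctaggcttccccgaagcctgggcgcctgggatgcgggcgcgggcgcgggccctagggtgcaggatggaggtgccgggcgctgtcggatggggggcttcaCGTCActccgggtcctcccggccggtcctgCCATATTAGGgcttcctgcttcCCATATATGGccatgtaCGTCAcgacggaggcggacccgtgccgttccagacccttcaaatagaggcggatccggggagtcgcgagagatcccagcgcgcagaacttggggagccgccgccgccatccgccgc
MAFF (chr22:38201744-38202043, plus strand): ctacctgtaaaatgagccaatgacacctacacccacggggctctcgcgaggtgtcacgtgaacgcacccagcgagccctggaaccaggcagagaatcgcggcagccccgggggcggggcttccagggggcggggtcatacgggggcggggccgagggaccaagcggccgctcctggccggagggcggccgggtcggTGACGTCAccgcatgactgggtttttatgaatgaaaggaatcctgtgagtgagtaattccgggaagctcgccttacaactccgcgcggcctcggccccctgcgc
FOSL2 (chr2:28392608-28392907, plus strand): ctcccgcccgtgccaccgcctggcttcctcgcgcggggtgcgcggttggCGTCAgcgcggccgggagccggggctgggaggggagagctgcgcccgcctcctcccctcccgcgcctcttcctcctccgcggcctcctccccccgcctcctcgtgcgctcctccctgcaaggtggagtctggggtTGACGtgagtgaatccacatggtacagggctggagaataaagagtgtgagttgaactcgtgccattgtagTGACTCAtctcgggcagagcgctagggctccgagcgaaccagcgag
EGR1 holds 2 CArG boxes, whose first bases are 105 and 83 bases before the start, flanked by 2 CRE cores on the opposite strand. A CArG box is in 1.29% of the 35116 promoters of this length, and none of the other 10 member promoters has one. Only fixed patterns were searched, from 250 bases before to 50 after a start. Sites further away or of other sequence are not covered. JUNB has 1 CRE core at -137 and TATAAA at -31, MAFF has a full CRE at -54 in the first of its promoters, and FOSL2 has TGACTCA at position 4 after the start. The core, in 24.6% of all promoters, was found for FOS, FOSB, FOSL2, JUN, JUNB, JUND, EGR1 and MAFF, the full CRE (1.85%) for JUND and MAFF, TGACTCA (4.95%) for FOSL2, and TATAAA (11.5%) for FOS, FOSB, JUNB and 1 promoter of ATF3. In that ATF3 promoter TATAAA lies far from the start, at -230, and neither ATF3 promoter holds another marked motif. Which ATF3 start was in use in these cells was not tested. An interferon response element, searched as 2 runs of GAAA with 2 bases between them, was in no member promoter and in 3.57% of all, and an NF-kB site was in 1 MAFF promoter and in 11.3% of all.

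Between the constructs in SK-N-SH, all 10 factors had negative fitted values for dEx1 against FL, and 7 passed (7 by DESeq2 too), where 11.5% of all genes tested were called lower and 22.0% either way. The median log2 fold change was -0.79 over the 10 factors and 0.00 over all genes. This comparison shares its dEx1 libraries with the last one. FOSL2 had 236, 251 and 228 CPM with dEx1, against 412, 445 and 378 CPM with FL. No dEx1 library came near the lowest FL library. FOSL2 fell by 0.79 (SE 0.10, adjusted p = 0.00179), and its call was lost with all 27 libraries fitted together (adjusted p = 0.106).

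MAFF had 37.1, 43.6 and 28.1 CPM with dEx1, against 79.8, 85.4 and 69.0 CPM with FL, and fell by 1.11 (SE 0.19, adjusted p = 0.00529). JUNB had 95.9, 106 and 85.5 CPM with dEx1, against 179.8, 185 and 244 CPM with FL, and fell by 1.08 (SE 0.16, adjusted p = 0.00273). MAFF and JUNB kept their calls under all 19 alternatives run. FOSL1 had 251, 251 and 243 CPM with dEx1, against 437, 396 and 649 CPM with FL, where FL replicate 3 was well above the other two (-0.99, SE 0.18, adjusted p = 0.00695, lost at 0.0818 with all 27 libraries fitted together). ATF3 had 20.0, 21.2 and 10.9 CPM with dEx1, against 37.6, 41.4 and 38.0 CPM with FL (-1.17, SE 0.31, adjusted p = 0.0281). EGR1 had 32.6, 52.2 and 34.6 CPM with dEx1, against 58.9, 72.9 and 75.0 CPM with FL (-0.79, SE 0.20, adjusted p = 0.0247). In each of these genes the groups were apart.

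The dEx1 against FL call of ATF3 was lost without any FL library, without dEx1 replicates 1 or 3 and with all 27 libraries fitted together (adjusted p up to 0.0756). That of EGR1 was lost without FL replicates 2 or 3, without dEx1 replicates 1 or 3 and with replicate 3 of every group left out (up to 0.0910). JUN had 193, 191 and 210.1 CPM with dEx1, against 254, 244 and 284 CPM with FL, the smallest of the 7 changes (-0.40, SE 0.09, adjusted p = 0.0142), lost without dEx1 replicates 1 or 2 and with all 27 libraries fitted together (up to 0.381). FOS at -0.50 (adjusted p = 0.238), FOSB at -0.79 (adjusted p = 0.297) and JUND at -0.06 (adjusted p = 0.866) did not pass.

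With FL against vector in SK-N-SH, 0 of 10 factors passed by edgeR, where 1.74% of genes were called, while 3 had an unadjusted p under 0.05 and DESeq2 called 2. Those 2 were ATF3 and FOSL2. ATF3 had 37.6, 41.4 and 38.0 CPM with FL, against 122, 106 and 57.3 CPM with vector. The FL libraries were alike and all below vector (-1.29, SE 0.30, adjusted p = 0.0801, DESeq2 adjusted p = 0.00186). FOSL2 had 412, 445 and 378 CPM with FL, against 286, 281 and 337 CPM with vector, all FL libraries being higher (0.45, SE 0.10, adjusted p = 0.0672, DESeq2 adjusted p = 0.00109). Over its 19 alternatives the adjusted p ran from 0.00186 to 0.261 for ATF3 and from 0.00109 to 0.695 for FOSL2. Without vector replicate 3 both passed, ATF3 at -1.55 (adjusted p = 0.0364) and FOSL2 at 0.54 (adjusted p = 0.0436).

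FOSB, with 4.64, 6.48 and 2.73 CPM with FL, against 3.18, 1.08 and 1.26 CPM with vector, had the highest fitted value at 1.33 (SE 0.50, adjusted p = 0.247), but FL replicate 3 lay below vector replicate 1. EGR1 (58.9, 72.9 and 75.0 CPM with FL, against 87.6, 73.6 and 104 CPM with vector) overlapped by 1 library a side (-0.36, adjusted p = 0.442). JUN at -0.18, JUNB at -0.16, FOS at -0.14, MAFF at 0.14, FOSL1 at 0.14 and JUND at 0.07 had overlapping groups and adjusted p of 0.357 or more. By group means FOSL2 was highest with FL, ATF3 highest with vector, and both were lowest with dEx1. FL against vector passed for neither in the main fit, and whether the order of groups differs between members was not tested.

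Some marker genes of the line's own cell type and of other cell types differed between dEx1 and FL cells. Of 6 fibroblast markers listed, PDGFRB, DCN, LUM and THY1 were in the table. They were expressed in SK-N-SH and summed to 1066 to 1562 CPM with dEx1, 590 to 981 CPM with FL and 508 to 1494 CPM with vector. The neuroblastoma markers summed to 193 to 242 CPM with dEx1, 95.3 to 186 CPM with FL and 140 to 218 CPM with vector. Of the tested markers, 2 of 4 fibroblast genes (PDGFRB and DCN) and 2 of 6 neuroblastoma genes (HAND2 and ISL1) passed upward with dEx1 against FL, and none of either list passed against vector. In dEx1 against FL 22.0% of all genes were called either way. The marker lists are short, and their counts were not tested against that share. TIE1, an endothelial receptor, passed downward with dEx1 against FL, at 0.592 ± 0.264 CPM with dEx1 and 1.82 ± 0.241 CPM with FL (SD, n = 3; -1.62, adjusted p = 0.0321), 1 of 3 endothelial genes tested. For the fibroblast and neuroblastoma lists dEx1 libraries lay above all FL libraries and overlapped vector libraries, and the part of this shift in the results above was not tested.

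**Figure D2:**
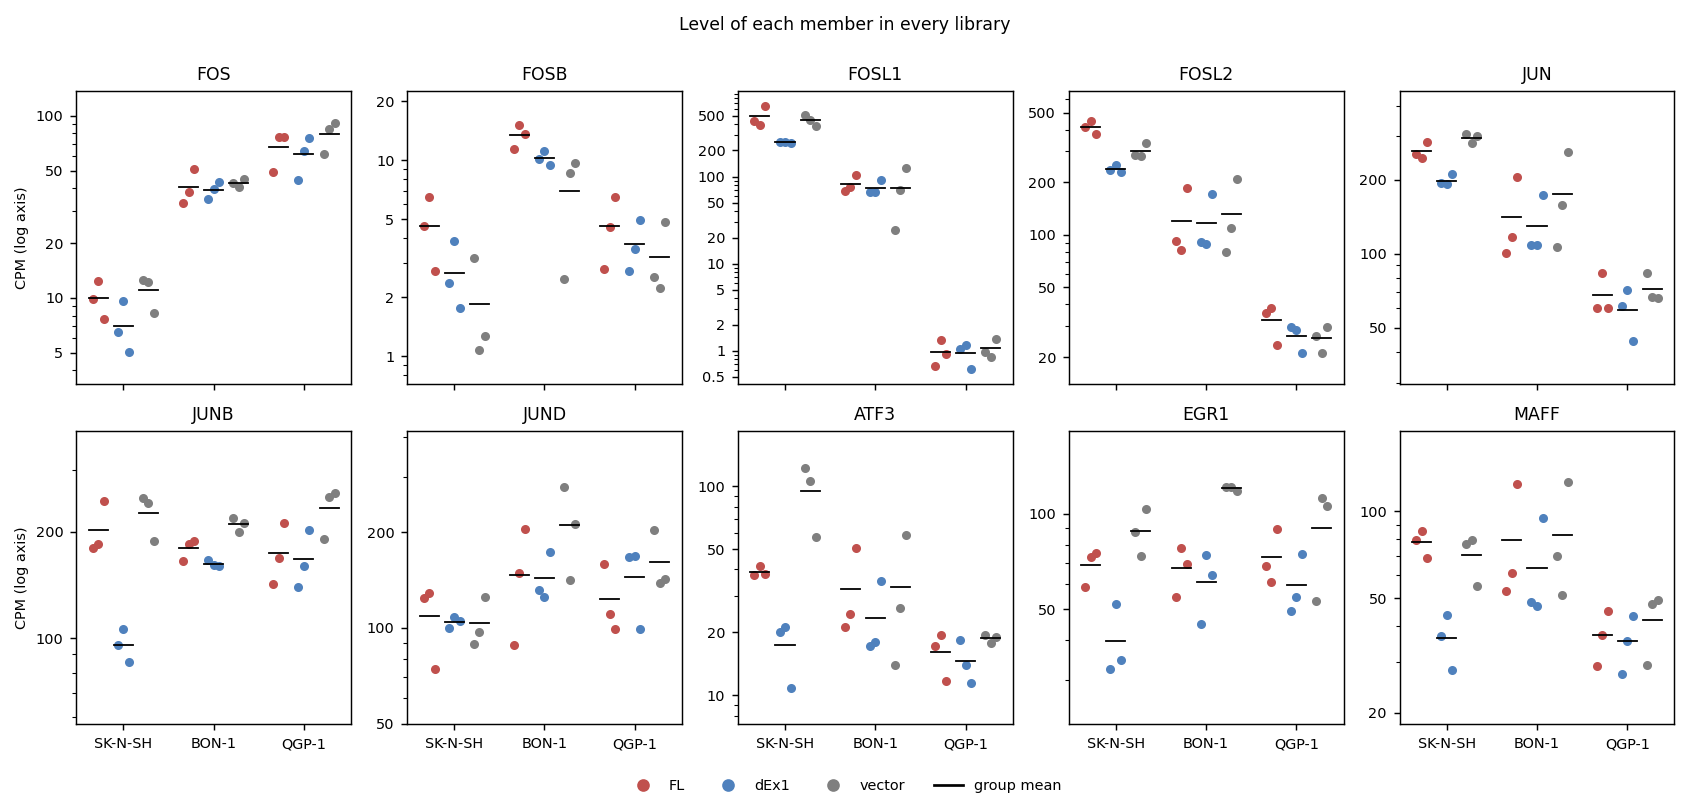
CPM of each of the 10 factors in all 27 libraries, each gene on a log axis of its own, for FL, dEx1 and vector in each line; points are single libraries in the order of their replicate numbers and lines are group means. FOSL1 runs from 649 CPM in SK-N-SH FL replicate 3 to 0.623 CPM in QGP-1 dEx1 replicate 3, and the dEx1 libraries of SK-N-SH lie lowest in that line for JUN, JUNB, FOSL1, FOSL2, ATF3, EGR1 and MAFF.

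In BON-1, edgeR called 0 of 10 factors in FL against vector, in dEx1 against vector and in dEx1 against FL, where 0.00671%, 0.0134% and 0% of the 14903 genes tested were called. An unadjusted p under 0.05 was reached by 2, 2 and 0 factors, and DESeq2 called 0, 1 and 0. EGR1 had 54.7, 78.0 and 69.6 CPM with FL and 45.1, 73.9 and 64.3 CPM with dEx1, against 121, 121 and 118 CPM with vector. The vector libraries were nearly identical, and all 6 construct libraries were below them. The log2 fold changes were -0.84 with FL (SE 0.20, adjusted p = 0.928, unadjusted p = 0.00214) and -0.98 with dEx1 (SE 0.20, adjusted p = 0.829, unadjusted p = 0.000782), and the one factor DESeq2 called was EGR1 with dEx1 (adjusted p = 0.00766). These 2 comparisons share the vector libraries.

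JUNB in BON-1 had 166, 186 and 188 CPM with FL and 166, 161 and 160.3 CPM with dEx1, against 219.7, 199.9 and 212 CPM with vector. Both construct groups lay below vector without overlap, at -0.23 (SE 0.10, adjusted p = 0.928) and -0.37 (SE 0.10, adjusted p = 0.916). FOSB had 11.5, 15.1 and 13.7 CPM with FL and 10.1, 11.2 and 9.45 CPM with dEx1, against 2.48, 8.63 and 9.69 CPM with vector, at 0.95 with FL (adjusted p = 0.928) and 0.56 with dEx1 (adjusted p = 0.916). The low library here was vector replicate 1, which also had the lowest FOSL1 in the line, at 24.5 CPM beside 66.4 to 127 CPM in the other 8, and the highest JUND, at 278 CPM beside 88.6 to 213 CPM. With that library left out FOSB had 0.55 with FL. The other 7 factors had log2 fold changes between -0.56 and 0.16 against vector, and dEx1 against FL gave -0.45 to -0.03 over all 10. The ends of the range against vector were JUND with dEx1 and FOSL1 with FL, genes in which vector replicate 1 was extreme. Their values without that library are not given here.

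For 6 of the 10 factors, FOS, FOSL1, FOSL2, JUN, ATF3 and MAFF, replicate 3 of each BON-1 group was above replicates 1 and 2 of all groups, a pattern that 12.5% of the 14903 genes tested in this line had. ATF3 had 50.7, 35.2 and 58.7 CPM in replicate 3 of FL, dEx1 and vector, beside 14.0 to 26.0 CPM in the other 6 libraries. FOSL2 had 171 to 208 CPM in these 3 libraries beside 79.7 to 109 CPM, and MAFF 95.0 to 127 CPM beside 46.8 to 70.0 CPM. Libraries with the same number vary together in BON-1, and a fit with the replicate number as a block called 0 factors in each of the 3 comparisons.

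In QGP-1, too, edgeR and DESeq2 called 0 of 10 factors in each comparison, where 0.0275% (FL against vector), 0.0207% (dEx1 against vector) and 0.0138% (dEx1 against FL) of 14522 genes were called, and 0, 1 and 0 factors had an unadjusted p under 0.05. JUNB had 143, 169 and 212 CPM with FL and 139.9, 161 and 203 CPM with dEx1, against 191, 252 and 257 CPM with vector. The groups overlapped, at -0.42 (SE 0.20, adjusted p = 0.991) and -0.48 (SE 0.20, adjusted p = 1). EGR1 had 68.6, 60.8 and 89.7 CPM with FL and 49.3, 54.5 and 74.6 CPM with dEx1, against 53.0, 112 and 106 CPM with vector, where vector replicate 1 lay among the construct libraries (-0.31 and -0.60). FOSL1 was close to 0, at 0.623 to 1.36 CPM over all 9 libraries. The other factors had log2 fold changes between -0.39 and 0.52 in the 3 comparisons, and a term for the 2 clusters of libraries left the count of calls at 0.

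**Figure D3:**
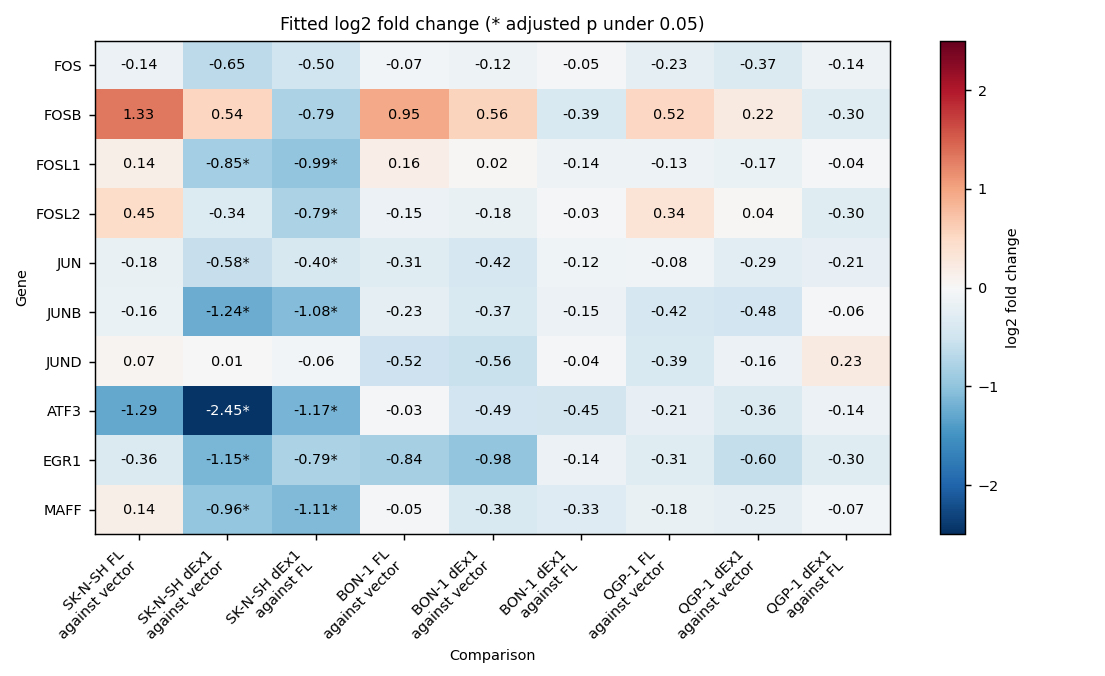
Heat map of fitted log2 fold changes for the 10 factors in rows and the 9 comparisons within lines in columns, with the value printed in each cell and an asterisk at an adjusted p under 0.05. All asterisks stand in the dEx1 columns of SK-N-SH, 6 against vector and 7 against FL, and FOS, JUN, JUNB, ATF3 and EGR1 are negative in all 9 columns.

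Whether the response differed between lines was tested in 1 model of all 27 libraries. None of the 10 factors passed for any of the 6 differences in effect, where 0.284%, 0.160% and 0.0118% of 16883 genes passed for FL (SK-N-SH minus BON-1, SK-N-SH minus QGP-1, BON-1 minus QGP-1) and 0.332%, 0.521% and 0% for dEx1. By unadjusted p under 0.05 the counts were 1, 0 and 0 for FL and 2, 2 and 0 for dEx1, and by DESeq2 0, 0 and 0 for FL and 2, 1 and 0 for dEx1. The dEx1 effect on ATF3 in SK-N-SH differed by -1.98 (SE 0.59) from that in BON-1, with an adjusted p of 0.187, and by -2.09 (SE 0.59) from that in QGP-1, with an adjusted p of 0.149. For JUNB these differences were -0.87 and -0.76 (SE 0.24 each), with adjusted p of 0.134 and 0.192. With the replicate number as a block, ATF3 passed for the FL difference between SK-N-SH and BON-1 (adjusted p = 0.0449), ATF3 and JUNB for the dEx1 difference between these lines (adjusted p = 0.00355 and 0.0229), and ATF3, JUNB and MAFF for the dEx1 difference between SK-N-SH and QGP-1. The numbers pair the libraries in BON-1 by the rule that every same-numbered pair correlates over 0.1 in its deviations from the group means. SK-N-SH fell short of it through replicate 1 only (0.0478 to 0.0971). QGP-1 fell short against vector through replicate 2 (-0.141 with FL and -0.168 with dEx1). Without the block, edgeR does not show the calls to be particular to SK-N-SH.

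The lines also differed in these factors without a construct. Between vector groups, 7 of 10 factors passed for SK-N-SH against BON-1, 6 for SK-N-SH against QGP-1 and 6 for BON-1 against QGP-1, shares near those of all genes, of which 60.6%, 60.6% and 51.4% passed. FOSL1 had 464 ± 67.6 CPM in SK-N-SH vector cells, 76.8 ± 53.4 CPM in BON-1 vector cells and 0.991 ± 0.250 CPM in QGP-1 vector cells (SD, n = 3, all 27 libraries scaled together). The log2 differences were 2.60 for SK-N-SH against BON-1 (SE 0.37, adjusted p = 6.41e-06), 8.87 for SK-N-SH against QGP-1 (adjusted p = 5.46e-12) and 6.27 for BON-1 against QGP-1 (adjusted p = 4.70e-10). Without BON-1 vector replicate 1 the values that involve BON-1 were 2.18 and 6.65, and both passed. FOSL2 had the same order, with 312 ± 30.6, 138 ± 69.8 and 24.0 ± 4.04 CPM (SD, n = 3), and all 3 steps passed (adjusted p = 0.00320 for SK-N-SH against BON-1, 9.23e-09 for SK-N-SH against QGP-1 and 1.89e-06 for BON-1 against QGP-1), also without BON-1 vector replicate 1.

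FOS ran the other way, with 11.4 ± 2.56 CPM in SK-N-SH vector cells, 44.5 ± 2.67 CPM in BON-1 and 73.8 ± 14.4 CPM in QGP-1 (SD, n = 3). The log2 difference was -1.96 for SK-N-SH against BON-1 (adjusted p = 1.79e-06), -2.69 for SK-N-SH against QGP-1 (adjusted p = 2.61e-08) and -0.73 for BON-1 against QGP-1 (adjusted p = 0.0231). JUN had 307 ± 13.3 CPM in SK-N-SH, 181 ± 79.9 CPM in BON-1 and 67.4 ± 9.63 CPM in QGP-1, where the BON-1 spread was wide and the call between SK-N-SH and BON-1 was lost without SK-N-SH vector replicate 1 or BON-1 vector replicates 1 or 2 (adjusted p up to 0.120). ATF3 had 98.6 ± 35.4, 34.2 ± 23.9 and 17.5 ± 0.799 CPM, and the step between BON-1 and QGP-1 did not pass (adjusted p = 0.0626, but 0.0131 without BON-1 vector replicate 1 and 0.0462 by DESeq2).

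JUNB was the factor with the closest levels, at 234.5 ± 35.5, 219 ± 13.6 and 218 ± 34.1 CPM in vector cells in the same order of lines (SD, n = 3), with log2 differences of 0.10 for SK-N-SH against BON-1, 0.11 for SK-N-SH against QGP-1 and 0.01 for BON-1 against QGP-1 (adjusted p of 0.605 or more). EGR1 had 91.3 ± 15.0, 125 ± 2.85 and 84.3 ± 30.2 CPM and passed in no pair. JUND had 107 ± 19.3, 220.3 ± 74.6 and 150.5 ± 34.3 CPM, and FOSB 1.90 ± 1.20, 7.19 ± 4.0 and 2.99 ± 1.32 CPM. Both were lower in SK-N-SH than in BON-1 (JUND -1.04, adjusted p = 0.00497; FOSB -1.92, adjusted p = 0.00225), and without BON-1 vector replicate 1 the values were -0.77 for JUND (adjusted p = 0.0384) and -2.31 for FOSB. MAFF had 73.2 ± 14.3, 86.2 ± 40.7 and 39.2 ± 10.2 CPM and was lowest in QGP-1 (0.90 for SK-N-SH and 1.13 for BON-1 against it, adjusted p = 0.0332 and 0.0109). Without BON-1 vector replicate 2 or QGP-1 vector replicate 3 the call of FOS between BON-1 and QGP-1 was lost (adjusted p up to 0.0894), and that of FOSB without BON-1 vector replicates 2 or 3 or QGP-1 vector replicates 1 or 2 (up to 0.159). FOSB passed between SK-N-SH and QGP-1 without SK-N-SH vector replicate 1 (adjusted p = 0.0379). MAFF lost its call against QGP-1 without SK-N-SH vector replicates 1 or 2 or QGP-1 vector replicates 1 or 2 (up to 0.161), and for BON-1 without BON-1 vector replicate 3 or QGP-1 vector replicate 1 (up to 0.128).

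Per kilobase of transcript, which allows genes to be compared, FOSL1 held the largest share of the FOS family in SK-N-SH and BON-1, and FOS in QGP-1. FOSL1 made up 80.5 ± 5.31% of it in SK-N-SH FL, 78.7 ± 1.11% in dEx1 and 83.7 ± 2.81% in vector (SD, n = 3), with FOSL2 at 17.8%, 19.1% and 14.5% and FOS at 1.40%, 1.79% and 1.66%. In BON-1 FOSL1 held 54.7 ± 2.07%, 53.3 ± 0.875% and 46.8 ± 14.3% and FOS 21.9%, 22.8% and 27.9% with FL, dEx1 and vector. In QGP-1 FOS held 82.4 ± 3.96%, 83.5 ± 4.89% and 87.5 ± 2.76% and FOSL1 1.46%, 1.70% and 1.46%. The summed level of the family was 370.0 ± 74.1 CPM per kb in SK-N-SH FL, 191 ± 6.08 in dEx1 and 325 ± 37.2 in vector, 86.3 to 92.9 in the BON-1 groups and 32.1 to 40.0 in the QGP-1 groups.

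The JUN family was more even over lines. It summed to 256 ± 9.09 CPM per kb in SK-N-SH FL, 172 ± 5.56 in dEx1 and 278 ± 9.16 in vector, to 227 ± 54.7, 211 ± 25.8 and 289.8 ± 45.6 in BON-1, and to 168 ± 7.40, 171 ± 8.47 and 218 ± 3.31 in QGP-1 (SD, n = 3). In SK-N-SH the dEx1 libraries, at 168 to 179, lay below all FL libraries at 249.8 to 267 and all vector libraries at 268 to 287. In QGP-1 both construct groups, at 162 to 176 and 166 to 181, lay below vector at 214 to 220.1. Taken singly, JUN, JUNB and JUND each overlapped with vector there, and none passed. The sums were not tested in any line, nor was how often other sums separate likewise. JUNB held 44.6 ± 5.90% of the family in SK-N-SH FL, 31.3 ± 2.75% in dEx1 and 46.0 ± 5.65% in vector, while JUND held 23.0%, 32.3% and 20.1%.

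**Figure D4:**
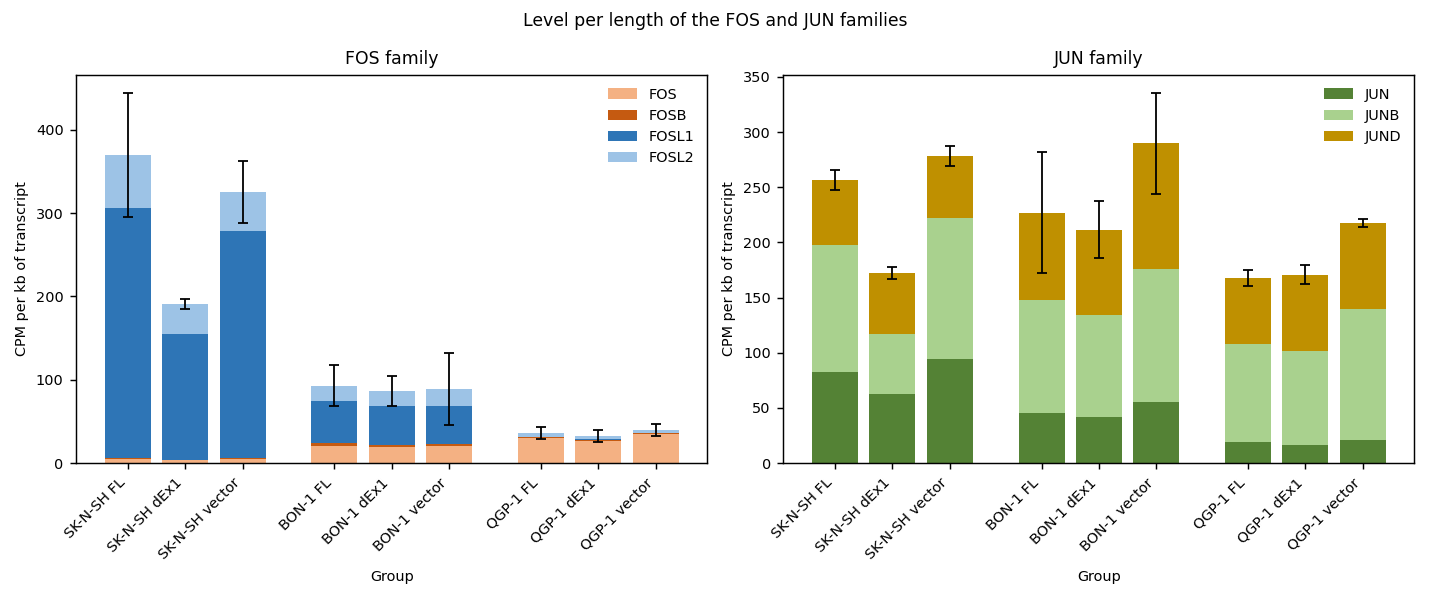
Stacked mean CPM per kb of transcript of the FOS family (left) and JUN family (right) in the 9 groups, with error bars of 1 SD of the summed level over 3 libraries. FOSL1 fills most of the FOS family bars of SK-N-SH and FOS most of those of QGP-1, and the JUN family bar of SK-N-SH dEx1 stands at 172 CPM per kb beside 256 with FL and 278 with vector.

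Other genes of the same circuits, taken from lists chosen with earlier results of these data known, moved in part with the factors in SK-N-SH. Among genes known to carry AP-1 sites, mostly metalloproteases, chemokines and growth factors, 9 of 22 tested passed upward with FL against vector and none downward, where 1.74% of all genes were called either way. With dEx1 against vector 6 passed downward (3.64% of all genes called lower), and with dEx1 against FL 17 (11.5%). The medians were 0.97, -1.0 and -2.00, beside -0.01, 0.01 and 0.00 over all genes. MMP10, a stromelysin, had 3.49 ± 0.557 CPM with dEx1, 79.9 ± 19.3 CPM with FL and 7.71 ± 2.55 CPM with vector (SD, n = 3), with log2 fold changes of 3.37 for FL against vector (adjusted p = 0.00314) and -4.52 for dEx1 against FL (adjusted p = 0.000238). MMP1, an interstitial collagenase, had 21.9 ± 3.84 CPM with dEx1, 555 ± 108 CPM with FL and 74.1 ± 31.9 CPM with vector, with values of 2.91 for FL and -1.76 for dEx1 against vector (adjusted p = 0.0103 and 0.0236). PLAUR, the urokinase receptor, had 71.3 ± 5.61 CPM with dEx1 and 164 ± 44.3 CPM with vector (-1.20, adjusted p = 0.0140). The count upward with FL was 2 with only the 6 libraries compared, 6 without vector replicate 3 and 12 by DESeq2, and the count downward with dEx1 against vector was 3, 12 and 15 in the same fits. Leaving out 1 library gave 2 to 9 upward with FL (2 without FL replicate 2) and 0 to 12 downward with dEx1 against vector. The downward count was 0 without dEx1 replicate 1 or vector replicate 1 and 1 without dEx1 replicates 2 or 3 or vector replicate 2. With replicate 3 of every group left out the counts were 12 upward with FL, 16 downward with dEx1 against vector and 17 downward with dEx1 against FL. The shares of all genes are those of the main fit. Shares under the alternative fits, here and below, are not given, and whether counts rose beyond those of all genes was not tested. In QGP-1, MMP10 and MMP1 passed upward with FL (4.08 and 5.53, adjusted p = 0.00268 and 0.00807), 2 of 18 tested, beside factors of which none passed. There MMP10 also passed downward with dEx1 against FL (-2.49, adjusted p = 0.0412), but 0 of 18 did with the replicate number as a block, which pairs these libraries. In BON-1 0 of 20 passed by edgeR.

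Of the other immediate early genes, 23 were tested in SK-N-SH, and 0 passed upward and 2 downward with FL against vector, 0 and 3 with dEx1 against vector and 1 and 10 with dEx1 against FL, beside 1.74%, 4.47% and 22.0% of all genes called either way. Without replicate 3 of every group the downward counts were 5, 12 and 12, with 7 upward with FL, and leaving out 1 library gave 0 to 3, 1 to 7 and 4 to 11 downward. KLF4, a zinc finger factor, had 3.46 ± 2.10 CPM with dEx1 and 34.1 ± 16.7 CPM with vector (SD, n = 3; -3.30, SE 0.54, adjusted p = 0.0201). ZFP36, which encodes the mRNA decay factor tristetraprolin, was lower with both constructs, at 26.8 ± 2.54 CPM with FL and 22.7 ± 0.520 CPM with dEx1, against 48.4 ± 7.82 CPM with vector (-0.85 and -1.10, adjusted p = 0.0246 and 0.00740). PTGS2, the inducible cyclooxygenase, had 18.8 ± 6.79 CPM with dEx1 and 603 ± 451 CPM with FL (-5.00, adjusted p = 0.00359). TRIB1 and IER3 fell by 1.75 and 0.99 with dEx1 against FL (adjusted p = 0.00201 and 0.00422). Without replicate 3 of every group KLF4 had -3.24 and PTGS2 -5.27, and both passed. The call of KLF4 was lost without dEx1 replicate 1 or vector replicates 1 or 2 (adjusted p up to 0.0754), and that of ZFP36 with FL without FL replicates 1 or 2, dEx1 replicate 1 or vector replicates 1 or 2 (up to 0.116).

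Of 24 other bZIP genes tested in SK-N-SH, 4 passed downward with dEx1 against vector and none upward, and 10 downward and 1 upward with dEx1 against FL, beside the same 4.47% and 22.0% of all genes. The downward counts were 12 and 14 without replicate 3 of every group, and 1 to 10 and 7 to 11 with 1 library left out (1 without dEx1 replicate 1 or vector replicates 1 or 2, 10 without vector replicate 3). BATF3, whose product pairs with JUN proteins, had 3.59 ± 1.02 CPM with dEx1, 16.9 ± 3.68 CPM with FL and 14.2 ± 3.22 CPM with vector (-1.98 against vector, adjusted p = 0.0101). CEBPB, a C/EBP factor of inflammatory genes, had 48.9 ± 14.8 CPM with dEx1 and 286 ± 122 CPM with FL (-2.55, adjusted p = 0.00441). BATF2 had 21.0 ± 12.0 CPM with dEx1 and 129 ± 14.7 CPM with vector (-2.61, adjusted p = 0.0164). Without replicate 3 of every group CEBPB had -2.65 and BATF2 -2.25, and both passed, while the call of BATF2 was lost without dEx1 replicate 1 or vector replicates 1 or 2 (adjusted p up to 0.0688). With FL against vector the 1 call was MAF, which was at 0 in all FL libraries and at 0.178 CPM with vector, but it did not pass with any single library left out (adjusted p up to 0.142).

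Of 22 genes of the MAP kinase cascade tested in SK-N-SH, none passed with dEx1 against vector (median 0.02), MAP2K1 and MAP2K3, kinases that activate ERK and p38, passed upward with FL (0.38 and 0.49, adjusted p = 0.0407 and 0.0481), and 3 passed upward and 5 downward with dEx1 against FL, where 22.0% of all genes were called. Both calls with FL were lost without any 1 library other than FL replicate 3 (adjusted p up to 0.173). Without replicate 3 of every group 4 passed upward and 3 downward with dEx1 against vector, 2 and 2 with FL against vector and 4 and 5 with dEx1 against FL. Of 14 genes of serum response factor, its partners, CREB coactivators and EGR1 cofactors, NAB2, a repressor of EGR1 activity that EGR1 itself induces, passed downward with dEx1 against vector, at 54.4 ± 7.81 CPM with dEx1 and 93.5 ± 11.2 CPM with vector (SD, n = 3; -0.78, SE 0.13, adjusted p = 0.0160). That call was lost without dEx1 replicate 1 or vector replicates 1 or 2 (adjusted p up to 0.0714). With FL against vector MEF2A passed downward (-0.52, adjusted p = 0.0453), but not after leaving out any single library (adjusted p up to 0.163). With dEx1 against FL MEF2A passed upward (0.70, adjusted p = 0.00258), and NAB1 and NAB2 passed downward (-0.85 and -0.49, adjusted p = 0.0110 and 0.0260). Without replicate 3 of every group 6 of these 14 genes passed downward with dEx1 against vector and 5 with dEx1 against FL. In BON-1 and QGP-1 no gene of these 4 lists passed.

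**Figure D5:**
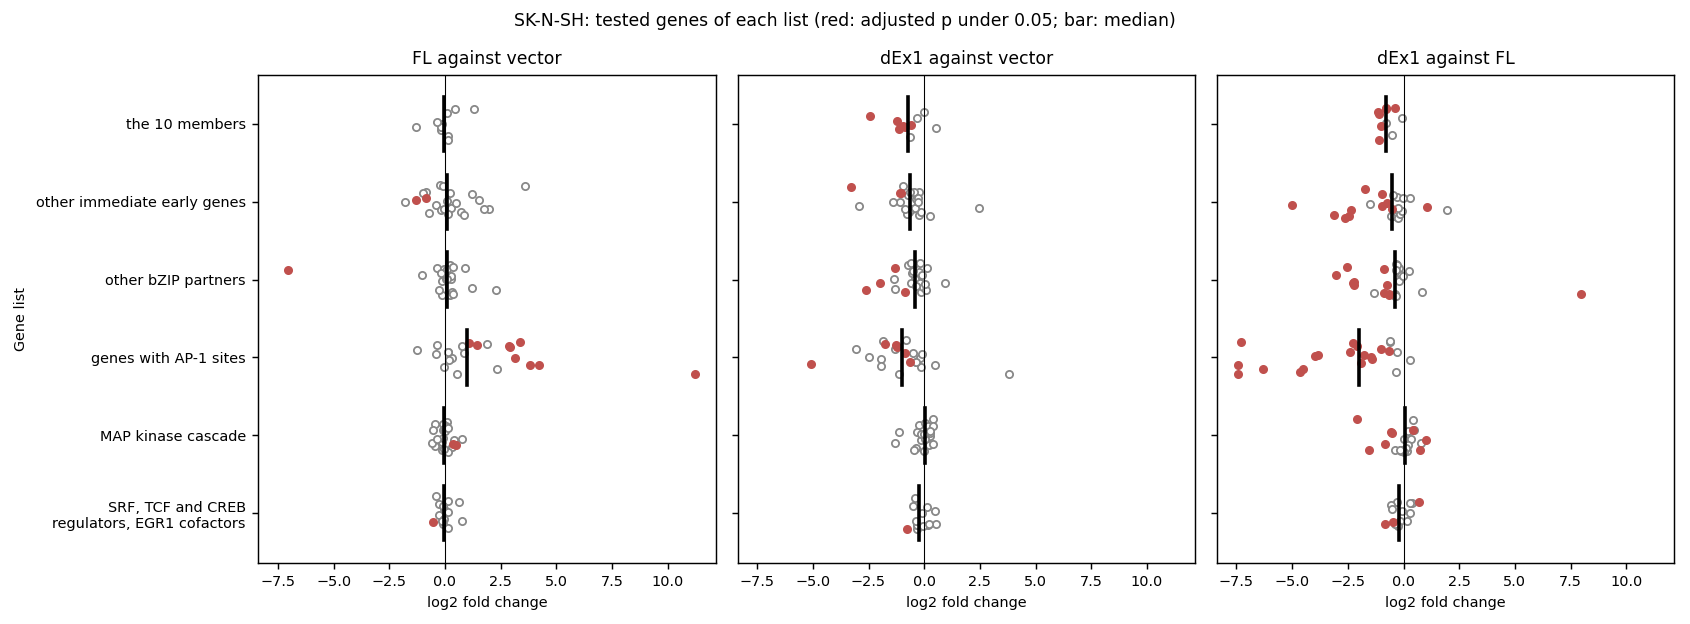
Log2 fold changes in SK-N-SH of the tested genes of the 10 factors and 5 other lists, for FL against vector, dEx1 against vector and dEx1 against FL; each point is a gene, red where the adjusted p is under 0.05, and black bars are medians. Genes with AP-1 sites lie right of 0 with FL against vector (median 0.97) and left of 0 in both dEx1 panels (medians -1.0 and -2.00), while the 10 factors have medians of -0.04, -0.75 and -0.79; MAF, at 0 with FL, gives the outermost bZIP points, and EREG (named after its values were seen), near 0 with vector, the outermost point of the genes with AP-1 sites.

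For each factor that passed against vector, the genes with the most similar pattern over the 6 comparisons with vector were taken, by the mean absolute difference of fitted log2 fold changes among 11647 genes tested in all lines. The nearest to ATF3 were HMOX1, which encodes heme oxygenase 1 and is a member of the list with AP-1 sites (mean difference 0.20), the noncoding RNA NEAT1 (0.24) and EYS (0.25). HMOX1 had -1.26 with FL and -1.86 with dEx1 in SK-N-SH, and -0.38 to -0.19 in the other lines. The nearest to JUNB were FAM186B, PAQR6 and SQSTM1 (0.09, 0.10 and 0.11), to FOSL1 DENND5A, RNF114 and PSME2 (0.05, 0.06 and 0.07), and to JUN RAB9A, AGAP9 and DUXAP10 (0.07 each). EGR1 lay nearest to NAT16, TRIB3 and RUNX2 (0.15, 0.16 and 0.17) and MAFF to PHF11, USP18 and MAX (0.09, 0.10 and 0.10). The 6 comparisons share vector libraries within a line, so these values describe likeness in these libraries alone.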

How the data were processed

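Per the labels' protocols, TruSeq mRNA libraries were made from RNA taken 3 days after transfection, and per the submitters' processing notes Trimmomatic, HISAT2 and StringTie were used with hg19. Their versions, the gene annotation and the handling of strand are not given in the sources used here, so reads of overlapping or antisense genes could not be told apart. The deposited table holds whole-number estimated counts per gene made by the authors. What 1 fragment is worth in these units is not known, so the depth in fragments is not known either. Of its 23234 rows, 4 repeat a symbol and were left out.

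The 10 members and the other lists were chosen with earlier results of these data known. Genes with low counts were removed (filterByExpr), and edgeR 4.0.16 (quasi-likelihood F test, TMM scaling, R 4.3.3) was fitted per line over 9 libraries, and over all 27 for comparisons between lines. P-values were adjusted by Benjamini-Hochberg over all genes tested, with 0.05 as the threshold. Every adjusted p in the text is edgeR's unless DESeq2 (1.42.0) is named. All 10 members are named in every comparison, and of each other list at most 3 genes a comparison with the lowest p among those past the threshold, beside the 3 genes nearest to each called member. Alternatives were DESeq2, its size factors, no filter, a minimum mean of 2 CPM, counts divided by 5, only the libraries compared, all 27 libraries, the replicate number as a block and leaving out each library in turn. A term for SK-N-SH replicate 3, leaving out that replicate in every SK-N-SH group and a term for the 2 QGP-1 clusters were added after seeing the data. Replicate numbers pair the libraries in all BON-1 comparisons and in dEx1 against FL in QGP-1, where every same-numbered pair correlates over 0.1 in its deviations from the group means. CPM per kb used the length of the GENCODE canonical transcript (hg19). The fits were tested on simulated counts with known changes in FL against vector. Of genes changed 2-fold, 55% were recovered in SK-N-SH, 19% in BON-1 and 33% in QGP-1. Of genes changed 1.5-fold, 7%, 3% and 3% were recovered, and of genes changed 4-fold 95%, 83% and 85%.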

Additional observations from a re-analysis of the deposited data

How the results depend on the processing

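Over single genes, 923 alternative values kept their direction and their side of the threshold, 53 lost a call, 33 gained one and 32 changed sign, all of the last among uncalled values. Of the 10 factors, the count called for FL against vector in SK-N-SH, 0 in the main result, was 1 with the replicate number as a block, 2 with DESeq2, 2 with a term for replicate 3 and 4 with replicate 3 left out of every group (ATF3, FOSL2, JUNB and JUND). With all 27 libraries in 1 fit, 3 were called for dEx1 against vector and 3 for dEx1 against FL in SK-N-SH. With the replicate number as a block the counts for the other 2 SK-N-SH comparisons were 7 and 8, FOS being added in both. In SK-N-SH the numbers fell short of the rule that every same-numbered pair correlates over 0.1, through replicate 1 only. Replicate 1 correlated at 0.0478 to 0.0971, replicate 2 at 0.253 to 0.292 and replicate 3 at 0.326 to 0.461. DESeq2 called 1 for dEx1 against vector in BON-1. For differences in effect between lines, the block gave 1 (ATF3, for FL in SK-N-SH minus BON-1), 2 (ATF3 and JUNB, for dEx1 in SK-N-SH minus BON-1) and 3 (these and MAFF, for dEx1 in SK-N-SH minus QGP-1), and DESeq2 2 and 1 for the dEx1 differences. The block changed no other count of called factors by over 1.5 times. How many of all genes each alternative fit called is not given here, so these counts have no share beside them. Of the genes with AP-1 sites it called 13 lower for dEx1 against vector in SK-N-SH (6 without it) and 11 higher and 1 lower for FL (9 and 0 without it), 5 and 3 higher for FL in SK-N-SH minus BON-1 and minus QGP-1 (2 and 1), 4 and 7 lower for the same dEx1 differences (0 and 2), 2 lower for FL in BON-1 minus QGP-1 (1), and in QGP-1 none for dEx1 against FL (1). For dEx1 against vector in SK-N-SH it called 8 other immediate early genes (3), 12 bZIP genes (4), 4 MAP kinase genes (0) and 4 regulators and cofactors (1), for FL against vector 9 (2), 4 (1), 3 (2) and 2 (1), and for dEx1 against FL 13 (11), 14 (11), 10 (8) and 7 (3). Leaving out 1 library gave 0 to 2 for FL against vector in SK-N-SH, 1 to 6 for dEx1 against vector (1 without dEx1 replicate 1, 2 without vector replicate 1, 3 without dEx1 replicate 3) and 4 to 7 for dEx1 against FL (4 without dEx1 replicate 1). It gave 0 to 1 for the dEx1 effect in SK-N-SH minus BON-1 and minus QGP-1, and for vector levels 6 to 7, 5 to 6 and 4 to 7 (SK-N-SH against BON-1, SK-N-SH against QGP-1, BON-1 against QGP-1).

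JUND for dEx1 against vector in SK-N-SH turned to -0.000411 with no filter, -0.00852 with DESeq2 or its size factors, -0.00168 with counts divided by 5 and -0.00614 with only the 6 libraries compared. FOSL1 for FL against vector was -0.21 with replicate 3 left out of every group. JUNB for BON-1 against QGP-1 vector cells was -0.0337 with no filter, -0.0265 with a minimum mean of 2 CPM and -0.00109 with DESeq2 or its size factors. With 1 library left out, values for FL against vector in SK-N-SH ran from -0.32 to 0.016 (FOS), -0.10 to 0.28 (FOSL1), -0.065 to 0.29 (JUND) and -0.00803 to 0.24 (MAFF), and JUND from -0.093 to 0.15 for dEx1 against vector and -0.29 to 0.064 for dEx1 against FL. For vector levels they ran from -0.48 to 0.22 (MAFF, SK-N-SH against BON-1), -0.19 to 0.27 (EGR1, SK-N-SH against QGP-1), -0.054 to 0.20 (JUNB, SK-N-SH against QGP-1) and -0.16 to 0.085 (JUNB, BON-1 against QGP-1). The cause of these changes was not tested. The depth in fragments is not known, so no floor from it is given.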
